A study of Mus musculus with 12 samples.

Results

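The 52 genes described here act in DNA replication and in mitosis, and they were chosen by symbol from a list of cell-cycle S and M phase genes. All 52 were among the 17536 genes of the deposited table, and all 52 passed the filter on low counts that left 13489 genes to test. The samples were hearts of 10 week old mice of the outbred ICR strain, sequenced as 12 libraries in 4 groups of 3. The groups were untreated control, busulfan at 20 mg/kg, busulfan with FMT of a control kind (labelled B+Con-FMT), and busulfan with FMT of an AOS kind (labelled B+AOS10mg/kg-FMT, which gives AOS at 10 mg/kg). They are called control, busulfan, control-FMT and AOS-FMT below. For the FMT groups no dose of busulfan is stated, and every group but control received the drug. Busulfan is an alkylating drug that crosslinks DNA. The design text names the question as what FMT does to a heart damaged by busulfan. The labels do not say that replicates are separate animals, so p-values measure only the spread between these samples, which may be technical.

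Dividing cells pass from a gap phase into S phase, in which they copy their DNA, and then through a second gap into mitosis. Before S phase the MCM helicase is loaded on replication origins by Cdc6 and Cdt1, and E2F factors with cyclin E switch on the genes of DNA synthesis. Later, cyclin B with Cdk1 and kinases such as Plk1 and Aurora B drive chromosome condensation, attachment to the spindle and cell separation. Most heart muscle cells of an adult mouse have left the cell cycle, and the cells of an adult heart that still divide are mainly non-muscle cells such as endothelial cells, fibroblasts and leukocytes. In bulk RNA of a whole organ, fewer cells of a type and less RNA per cell cannot be told apart.

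The promoters of these genes carry known sequence elements, and they are shown first because their shares differed between the S phase members and the mitotic members. The element known as CHR, spelled TTTGAA or TTCGAA, and the CCAAT box are recognised by the MuvB complexes and by NF-Y. E2F sites are spelled here as TTTCCCGC, TTTCGCGC, TTTGCCGC and TTTGGCGC. All were searched on both strands of 300 base windows from RefSeq on GRCm38.p6. Each ran from 250 bases before to 50 after a start of the gene, which is not always its outermost one. A window was found for 45 of the 52 members, in 49 windows. CHR letters stood in 80.6% of the 31 windows of mitotic members, in 16.7% of the 18 windows of S phase members and in 19.2% of all 32851 promoter windows. The CCAAT box stood in 77.4%, 66.7% and 37.4% of them. E2F letters stood in 3.23% of mitotic windows, 38.9% of S phase windows and 2.26% of all windows. Both CHR and CCAAT stood in 71.0% of mitotic windows and in 7.52% of all. E2F spellings can overlap each other, and a match describes the letters and not binding.

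The 4 windows below hold both elements. They were taken in order of p for busulfan against control from the 33 members whose values are given in every library by role, which leaves out Kif23, whose window also holds both. CHR and CCAAT letters of either strand are in capitals. Each is written 5′ to 3′ on the strand of its gene, which is the minus strand for Mki67 and Top2a and the plus strand for Prc1 and Plk1. They lie at chr7:135716330-135716629 for Mki67, chr7:80294201-80294500 for Prc1, chr7:122159185-122159484 for Plk1 and chr11:99024140-99024439 for Top2a.
Mki67: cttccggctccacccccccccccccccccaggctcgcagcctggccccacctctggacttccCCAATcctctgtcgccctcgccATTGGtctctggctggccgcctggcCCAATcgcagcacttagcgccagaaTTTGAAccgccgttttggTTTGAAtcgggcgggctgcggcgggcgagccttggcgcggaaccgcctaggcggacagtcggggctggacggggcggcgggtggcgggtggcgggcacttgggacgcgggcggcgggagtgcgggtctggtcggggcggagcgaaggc
Prc1: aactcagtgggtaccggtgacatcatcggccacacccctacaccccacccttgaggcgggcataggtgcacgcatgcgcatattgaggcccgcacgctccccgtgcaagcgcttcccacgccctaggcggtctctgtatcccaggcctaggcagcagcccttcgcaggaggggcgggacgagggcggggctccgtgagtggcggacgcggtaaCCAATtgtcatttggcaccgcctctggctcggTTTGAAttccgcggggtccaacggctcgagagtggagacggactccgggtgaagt
Plk1: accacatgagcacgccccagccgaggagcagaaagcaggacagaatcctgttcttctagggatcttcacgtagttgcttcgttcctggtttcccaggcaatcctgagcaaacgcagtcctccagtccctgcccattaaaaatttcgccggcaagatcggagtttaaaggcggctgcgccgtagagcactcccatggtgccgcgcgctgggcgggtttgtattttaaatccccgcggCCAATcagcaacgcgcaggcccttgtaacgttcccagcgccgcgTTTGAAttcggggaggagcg
Top2a: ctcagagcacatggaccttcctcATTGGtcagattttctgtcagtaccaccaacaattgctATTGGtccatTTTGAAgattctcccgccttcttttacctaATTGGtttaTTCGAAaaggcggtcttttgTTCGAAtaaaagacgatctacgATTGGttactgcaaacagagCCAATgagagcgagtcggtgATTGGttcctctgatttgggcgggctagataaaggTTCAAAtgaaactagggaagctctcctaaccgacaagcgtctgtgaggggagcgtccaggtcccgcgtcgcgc
In Prc1 a CCAAT at base 214 of the window is followed by a TTTGAA at base 246, and in Plk1 the pair stands at bases 237 and 281. Top2a holds 6 CCAAT boxes and 4 CHR spellings in its window, and Mki67 holds 3 and 2.

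For contrast, the 3 windows below belong to the S phase members Cdt1, Mcm5 and Cdc6, with E2F letters in capitals, all on the plus strand. They lie at chr8:122567765-122568064, chr8:75109259-75109558 and chr11:98907901-98908200.
Cdt1: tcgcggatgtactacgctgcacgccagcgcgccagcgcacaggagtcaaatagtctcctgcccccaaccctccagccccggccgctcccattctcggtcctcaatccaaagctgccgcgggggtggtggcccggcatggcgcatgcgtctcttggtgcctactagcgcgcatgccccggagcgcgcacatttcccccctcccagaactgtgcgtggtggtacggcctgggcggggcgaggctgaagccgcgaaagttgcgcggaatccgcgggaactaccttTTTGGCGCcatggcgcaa
Mcm5: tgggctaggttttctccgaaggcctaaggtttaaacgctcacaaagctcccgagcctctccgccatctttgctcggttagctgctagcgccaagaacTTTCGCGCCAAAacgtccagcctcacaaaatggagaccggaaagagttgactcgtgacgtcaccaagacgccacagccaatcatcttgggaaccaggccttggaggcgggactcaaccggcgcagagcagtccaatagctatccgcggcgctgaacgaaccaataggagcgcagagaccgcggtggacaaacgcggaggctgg
Cdc6: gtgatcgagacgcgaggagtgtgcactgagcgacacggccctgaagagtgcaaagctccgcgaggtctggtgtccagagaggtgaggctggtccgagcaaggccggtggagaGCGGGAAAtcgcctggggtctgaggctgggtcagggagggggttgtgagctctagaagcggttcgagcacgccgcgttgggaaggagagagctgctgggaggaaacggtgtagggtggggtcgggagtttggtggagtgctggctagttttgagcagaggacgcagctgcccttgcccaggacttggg
In Mcm5 the 2 matches, TTTCGCGC at base 98 and GCGCCAAA at base 102, overlap. Cdt1 and Cdc6 hold 1 match each, at bases 283 and 113. CCAAT letters are not marked in these 3 windows, and Mcm5 holds 3 CCAAT boxes, where Cdt1 and Cdc6 hold 0. The Cdc6 window lies wholly downstream of that gene's outermost start, at chr11:98907709, so its match is not upstream of that start. Over the 45 members with a window, those with CHR letters had a median log2 fold change of 0.55 for busulfan against control (26 genes), and those without had 0.28 (19 genes). For AOS-FMT against control the medians were 0.84 and 0.49. These are descriptions, and CHR letters go with the mitotic class, so motif and class cannot be told apart here.

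Libraries held 11333650 to 14335688 estimated counts. Cardiomyocyte markers such as Myh6 and Tnnt2 summed to 63567 to 113127 CPM, as the labelled tissue calls for. CPM is the count of a gene over the TMM-scaled library size. Atrial and liver transcripts varied widely, with summed atrial markers from 8.18 to 8414 CPM and summed liver markers from 3.41 to 449.9 CPM, the last in AOS-FMT replicate 3. No 2 replicates of a group agreed within counting noise (chi-square of 8.88 to 71.5 per degree of freedom).

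The members were scarce transcripts. Their mean over 12 libraries had a median of 1.21 TPM, a unit per transcript length, where all 13489 genes had a median of 9.24 TPM, and 18 members were under 1 TPM. Cenpa, which encodes the histone H3 variant of centromeres, was the most abundant at 53.5 TPM, followed by Pcna, the sliding clamp of DNA polymerase, at 43.1 TPM. The next was Ube2c, the ubiquitin-conjugating enzyme of the anaphase promoting complex, at 8.73 TPM. At the low end were Mcm10 at 0.242, Bub1 at 0.254 and Cdc6 at 0.280 TPM. The median member had 33.8 counts per library, and the lowest value was 1 count, for Ndc80 in busulfan replicate 3. Named pseudogene copies exist for 5 members (Pcna, Tyms, Ccnb1, Ccnb2 and Kif4), and 15 share their locus with another gene, so reads of these could be split or shared by the counting.

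Replication and mitosis members differed in how they stood against control. Of the 33 mitotic members, 32 lay above 0 in busulfan against control, 32 in control-FMT against control and 32 in AOS-FMT against control, with Cenpa the exception each time. Their median log2 fold changes were 0.61, 0.56 and 0.89. The 19 S phase members had medians of 0.09, 0.14 and 0.22, and 10, 14 and 16 of them lay above 0. The 3 comparisons share the control libraries, and the difference between the classes was not tested. Over all genes tested the medians were -0.01, -0.01 and -0.01, and 47.7%, 47.4% and 49.0% lay above 0. The mitotic members also varied together between replicates, so they are not separate pieces of evidence. With group means removed, the median correlation between pairs of the 33 was 0.43, beside -0.0008 over all genes tested. Without busulfan replicate 2 it was 0.30 for the 33. The 9 S phase members that act in replication licensing had 0.38, and 0.33 without that library, so this was not particular to the mitotic members.

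**Figure D1:**
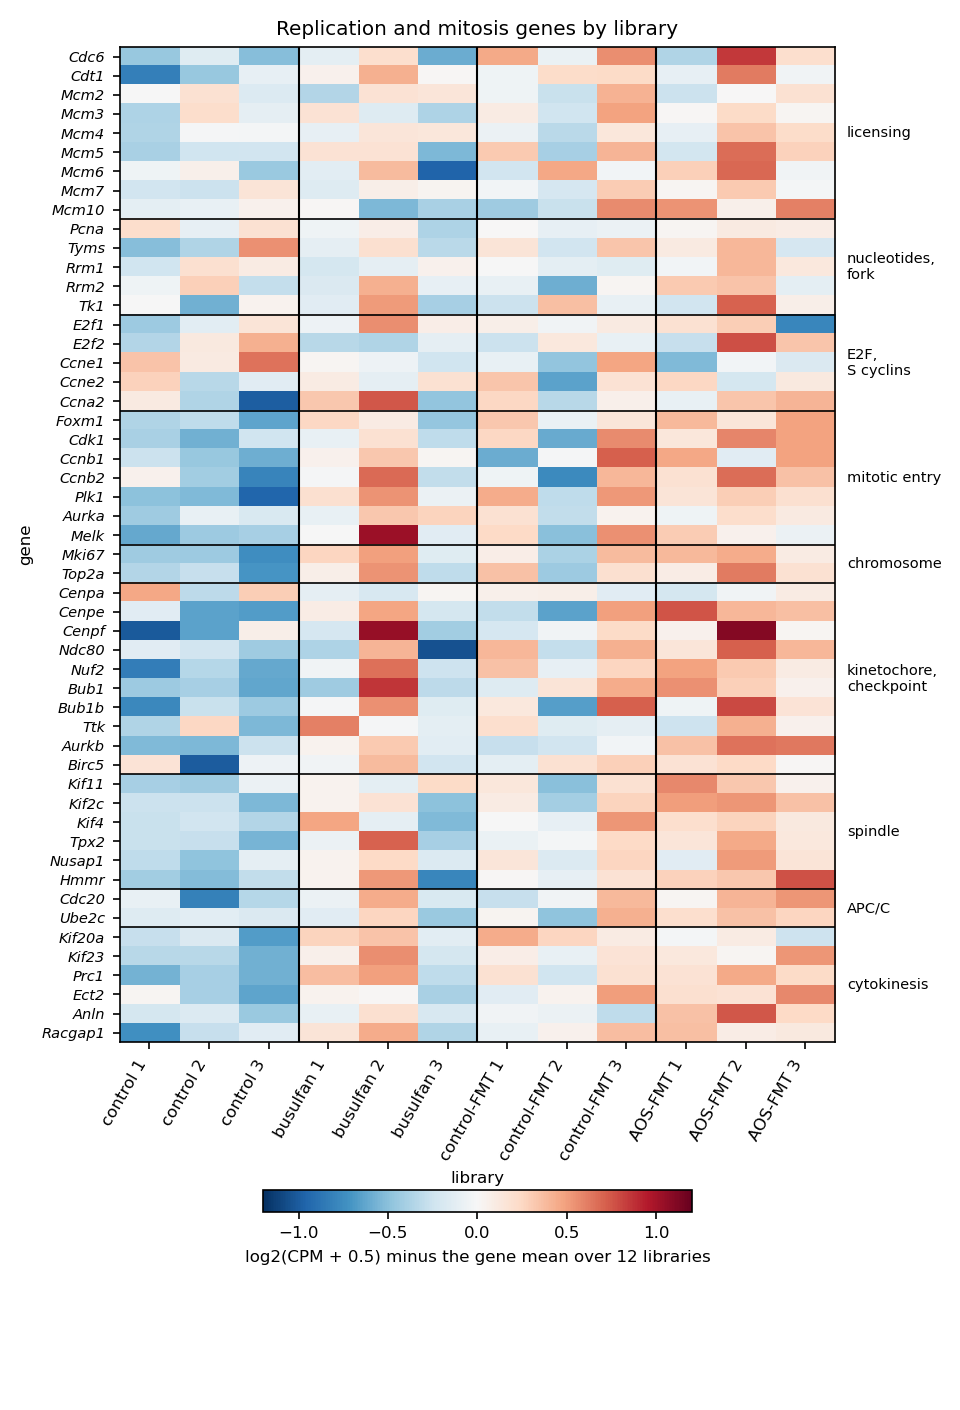
Heat map of the 52 members (rows, by role) in the 12 libraries (columns), coloured by log2(CPM + 0.5) minus the gene's mean over all libraries. From mitotic entry downward the 3 control columns are mostly blue, and busulfan replicate 2 and AOS-FMT replicate 2 hold the highest value of 15 and 18 members.

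The mean of the 52 members per library, as log2 CPM centred on each gene's mean, was lowest in the 3 control libraries. It was -0.33, -0.32 and -0.34 in control, 0.01, 0.34 and -0.30 in busulfan, 0.05, -0.22 and 0.31 after control-FMT and 0.16, 0.43 and 0.22 after AOS-FMT. The 3 controls lay close together and below every exposed library, while busulfan replicate 3 lay near them. Busulfan and control-FMT each spread over more than 0.5, and AOS-FMT over less. Busulfan replicate 2 held the highest value of 15 members and AOS-FMT replicate 2 that of 18, where 7.74% and 16.1% of all genes tested peaked in those libraries. Control replicate 3 held the lowest value of 16 members, against 8.41% of all genes.

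Busulfan was first compared with control, the comparison of the drug without FMT. Mki67, the proliferation antigen Ki-67 that coats mitotic chromosomes, had 10.4, 10.3 and 8.25 CPM in control, 17.1, 20.1 and 12.8 in busulfan, 15, 10.8 and 18.6 after control-FMT and 18.8, 19.4 and 15.2 after AOS-FMT. All 3 busulfan libraries lay above all 3 controls, and the same was true of control-FMT and AOS-FMT. Its log2 fold change in busulfan was 0.78 ± 0.21 (SE), and the edgeR adjusted p was 0.272. No member passed in this comparison: edgeR called 0 of 52 at an adjusted p under 0.05, where 0.0593% of all genes were called. At an unadjusted p under 0.05 there were 10 members higher and 0 lower, where 5.54% and 5.78% of all genes were. The 10 were Mki67, Prc1, Plk1, Nuf2, Melk, Kif20a, Kif23, Cdt1, Aurkb and Top2a, of which only Cdt1 was classed here with the S phase members. In 12 members the 3 busulfan libraries lay above the 3 controls without overlap and in 1 below, against 7.74% and 6.38% of all genes. The median over the 52 was 0.42. The count of 10 rested on single libraries: it was 3 without busulfan replicate 2, 6 without control replicate 3, and 17 without busulfan replicate 3.

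**Figure D2:**
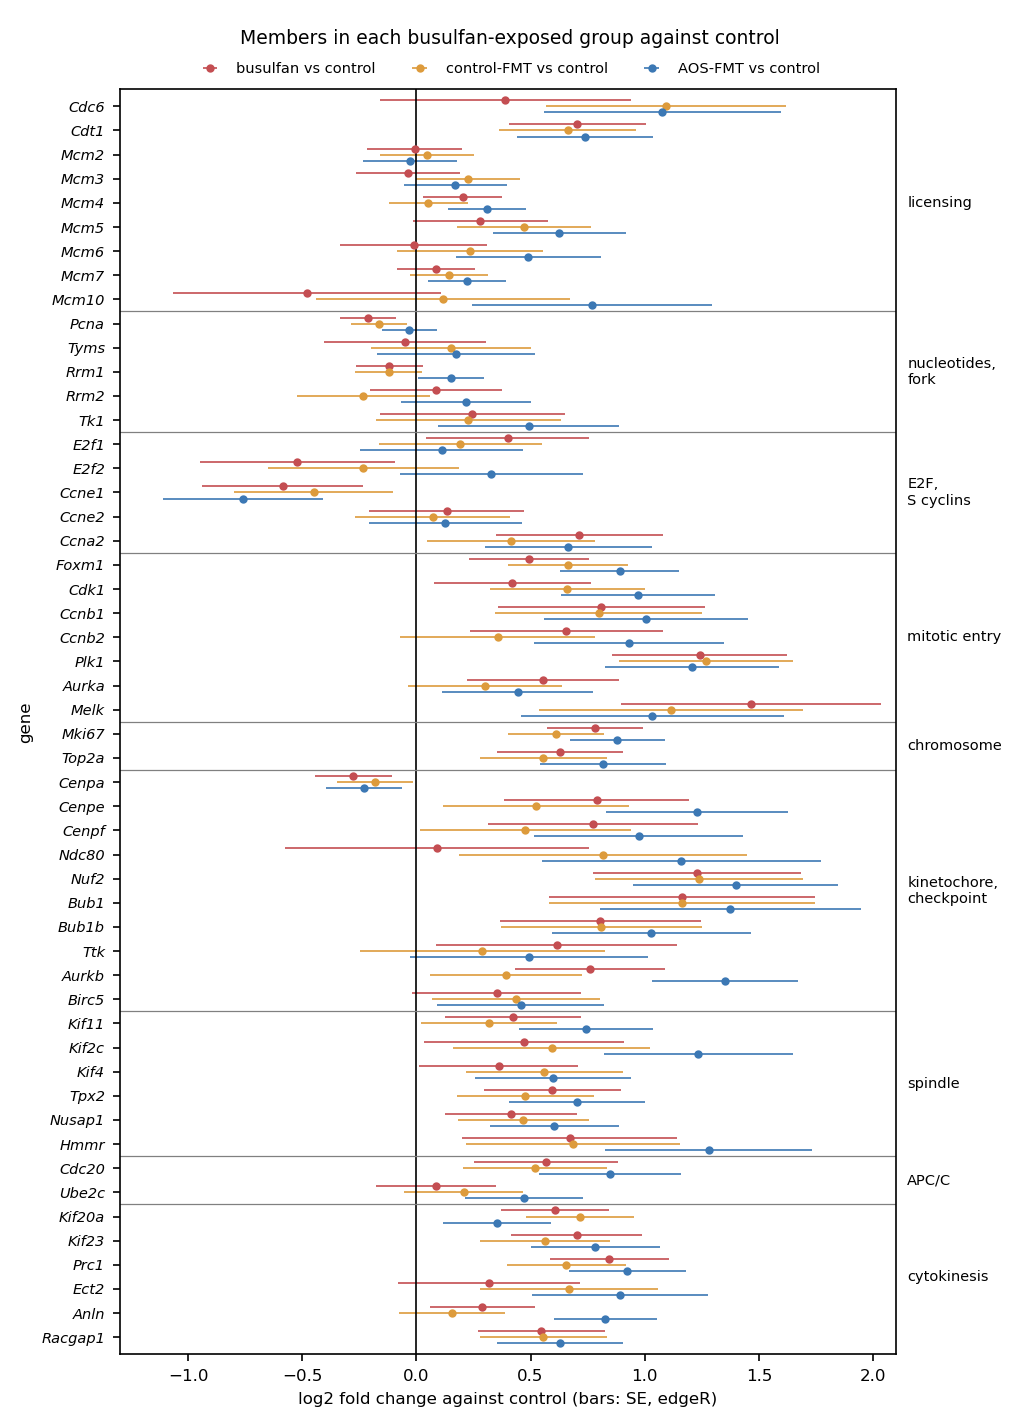
Log2 fold change of each member (rows, by role) against control in busulfan (red), control-FMT (orange) and AOS-FMT (blue), from edgeR, with bars of 1 SE. Mitotic members lie mostly right of 0 in all 3 groups, while Mcm2, Mcm3, Mcm7, Pcna and Rrm1 lie near 0 and Ccne1 lies left of it.

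Regulators of mitotic entry were followed in every library. Foxm1, the transcription factor that switches on mitotic genes, had 2.4, 2.51 and 1.9 CPM in control, 3.92, 3.48 and 2.2 in busulfan, 4.15, 3.03 and 3.62 after control-FMT and 4.36, 3.61 and 4.68 after AOS-FMT. Its log2 fold changes against control were 0.49 ± 0.26 in busulfan, 0.66 ± 0.26 after control-FMT and 0.89 ± 0.26 after AOS-FMT, where edgeR's adjusted p was 0.284. Both FMT groups lay above control without overlap, and busulfan replicate 3 lay within the controls. Plk1, a kinase of centrosome maturation and mitotic exit, had 0.942, 0.912 and 0.555 CPM in control, 1.83, 2.46 and 1.44 in busulfan, 2.27, 1.15 and 2.42 after control-FMT and 1.76, 2.0 and 1.83 after AOS-FMT. All 9 exposed libraries lay above the highest control, and the fold changes were 1.24 ± 0.38, 1.27 ± 0.38 and 1.21 ± 0.38, close to each other. Cdk1, the kinase that starts mitosis, had 1.88, 1.6 and 2.14 CPM in control, 2.44, 3.05 and 2.03 in busulfan, 3.21, 1.55 and 4.14 after control-FMT and 2.93, 4.19 and 3.88 after AOS-FMT. Its AOS-FMT libraries lay above control without overlap (0.97 ± 0.34), while control-FMT spread from below the lowest control to above the highest.

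The B cyclins, partners of Cdk1, averaged 0.863 TPM for Ccnb1 and 2.42 TPM for Ccnb2. Ccnb1 had 1.03, 0.836 and 0.714 CPM in control, 1.39, 1.78 and 1.35 in busulfan, 0.705, 1.31 and 2.5 after control-FMT and 2.01, 1.16 and 2.05 after AOS-FMT, and in busulfan and AOS-FMT its libraries lay above the controls. Ccnb2 had 2.4, 1.6 and 1.11 CPM in control, 2.26, 3.99 and 1.78 in busulfan, 2.19, 1.15 and 3.19 after control-FMT and 2.68, 3.94 and 3.07 after AOS-FMT, where busulfan and control-FMT overlapped control and AOS-FMT did not. Of the 7 mitotic entry genes, 2 had an unadjusted p under 0.05 in busulfan against control (Plk1 and Melk), 2 in control-FMT against control (Plk1 and Foxm1) and 5 in AOS-FMT against control (Foxm1, Plk1, Cdk1, Ccnb1 and Ccnb2). All of these were higher, as were 5.54%, 4.46% and 5.43% of all genes tested at that p. Melk, a kinase of dividing cells, had the highest fold change of the 52 in busulfan, 1.47 ± 0.57, from 0.342, 0.456 and 0.476 to 0.783, 2.12 and 0.677 CPM, and its highest value stood in busulfan replicate 2. Aurka, a kinase of spindle poles, stood at 0.55 ± 0.33.

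Top2a, the topoisomerase that untangles chromosomes, had 4.79, 5.09 and 3.65 CPM in control, 6.61, 9.33 and 4.99 in busulfan, 8.15, 4.5 and 7.25 after control-FMT and 6.71, 9.94 and 7.17 after AOS-FMT. Busulfan replicate 3 and control-FMT replicate 2 overlapped the controls, and AOS-FMT did not (0.82 ± 0.27, edgeR adjusted p = 0.389).

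Kinetochore and checkpoint genes ranged from Cenpa, below 0, to Nuf2, with the highest fold change of the 52 in AOS-FMT against control. Aurkb, the kinase that corrects wrong attachments to the spindle, had 0.770, 0.760 and 1.03 CPM in control, 1.39, 1.78 and 1.18 in busulfan, 1.02, 1.06 and 1.29 after control-FMT and 1.84, 2.39 and 2.34 after AOS-FMT. The AOS-FMT libraries were the 3 highest of all 12, and the fold changes against control were 0.76 ± 0.33 in busulfan, 0.39 ± 0.33 after control-FMT and 1.35 ± 0.32 after AOS-FMT, where the edgeR adjusted p was 0.176. Birc5, which encodes survivin, a partner of Aurkb, had 2.48, 0.836 and 2.06 CPM in control, 2.09, 2.97 and 1.78 in busulfan, 1.96, 2.54 and 2.76 after control-FMT and 2.52, 2.65 and 2.19 after AOS-FMT. Control replicate 2 was the lowest of all libraries and control replicate 1 lay among the exposed ones, so every group overlapped control. Nuf2 and Ndc80 form the microtubule-binding end of the kinetochore. Nuf2 had 0.342, 0.684 and 0.476 CPM in control, 0.957, 1.87 and 0.761 in busulfan, 1.41, 0.900 and 1.29 after control-FMT and 1.59, 1.36 and 1.1 after AOS-FMT, above the highest control in all 9 exposed libraries. Ndc80 had 0.599, 0.532 and 0.397 CPM in control, 0.435, 1.1 and 0.0846 in busulfan, 1.1, 0.491 and 1.12 after control-FMT and 0.839, 1.48 and 1.1 after AOS-FMT, with counts of 5.0, 13 and 1.0 in the busulfan libraries. The counting error of so few reads is large beside these differences.

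Bub1b, a component of the spindle checkpoint, had 1.03, 1.67 and 1.43 CPM in control, 2.09, 3.31 and 1.86 in busulfan, 2.35, 1.15 and 3.8 after control-FMT and 2.01, 4.0 and 2.41 after AOS-FMT. Control-FMT replicate 2 lay within the controls and the other exposed libraries lay above them. Bub1, a checkpoint kinase at the kinetochore, stood at 1.38 ± 0.57 in AOS-FMT against control. Cenpf, a large kinetochore protein, had 8.9, 11.6 and 19.4 CPM in control, 16, 38.5 and 13.7 in busulfan, 16, 17.9 and 21.7 after control-FMT and 19.2, 40.1 and 18.8 after AOS-FMT. Busulfan replicate 2 and AOS-FMT replicate 2 stood far above the others of their groups, and control replicate 3 lay among the exposed libraries. Cenpe, a kinetochore motor, stood at 0.79 ± 0.41 in busulfan and 1.23 ± 0.40 in AOS-FMT, and Ttk, the checkpoint kinase also called Mps1, at 0.61 ± 0.53 and 0.49 ± 0.52.

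Cenpa was the mitotic member that stood below 0. It had 44.9, 26.1 and 40.1 CPM in control, 30.1, 28.4 and 33.1 in busulfan, 34, 34.3 and 29.5 after control-FMT and 28, 31.5 and 35 after AOS-FMT. Control replicate 2 was the lowest library and control replicate 1 the highest, so the exposed groups lay inside the range of the controls, and the log2 fold changes against control were -0.28 ± 0.17, -0.18 ± 0.17 and -0.23 ± 0.17.

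Spindle proteins stood higher in AOS-FMT than in control in 5 of 6 genes without overlap, where 6.63% of all genes did. Kif11, the motor that separates spindle poles, had 1.8, 1.75 and 2.38 CPM in control, 2.61, 2.29 and 3.04 in busulfan, 2.82, 1.64 and 2.93 after control-FMT and 4.02, 3.29 and 2.63 after AOS-FMT, and Tpx2, an activator of Aurka on the spindle, had 2.82, 2.81 and 2.22 CPM in control, 3.31, 6.02 and 2.54 in busulfan, 3.29, 3.44 and 4.23 after control-FMT and 3.94, 4.97 and 3.88 after AOS-FMT. Kif11 overlapped control in busulfan and control-FMT, and Tpx2 in busulfan through replicate 3. Kif2c, a microtubule depolymerase, stood at 1.23 ± 0.41 and Hmmr, a spindle assembly protein, at 1.28 ± 0.45 in AOS-FMT against control. Kif4, a chromosome motor, stood at 0.60 ± 0.34 and Nusap1, which bundles spindle microtubules, at 0.60 ± 0.28.

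The 2 genes of the anaphase promoting complex differed. Cdc20, its activator, had 2.82, 1.52 and 2.3 CPM in control, 2.87, 4.33 and 2.62 in busulfan, 2.43, 2.95 and 4.14 after control-FMT and 3.1, 4.19 and 4.61 after AOS-FMT. AOS-FMT lay above control without overlap (0.85 ± 0.31, unadjusted p = 0.0173), and control-FMT replicate 1 lay inside the controls. Ube2c had 3.94, 4.03 and 3.89 CPM in control, 4.0, 5.43 and 3.13 in busulfan, 4.55, 3.03 and 6.13 after control-FMT and 5.2, 5.81 and 5.41 after AOS-FMT, with nearly equal controls, and its log2 fold changes of 0.08 ± 0.26, 0.21 ± 0.26 and 0.47 ± 0.26 were small, and only AOS-FMT lay above control without overlap.

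Cytokinesis genes were among the leading members. Prc1, which bundles microtubules of the central spindle, had 2.31, 2.66 and 2.3 CPM in control, 4.87, 5.35 and 2.88 in busulfan, 4.23, 3.03 and 4.23 after control-FMT and 4.19, 5.23 and 4.39 after AOS-FMT. All 9 exposed libraries lay above the 3 controls, which had a narrow spread, and edgeR gave 0.84 ± 0.26 in busulfan (adjusted p = 0.303). Racgap1, a subunit of centralspindlin, had 1.97, 2.89 and 3.25 CPM in control, 4.09, 5.09 and 2.71 in busulfan, 3.37, 3.76 and 4.83 after control-FMT and 4.78, 3.87 and 3.95 after AOS-FMT, and its partner Kif23 stood at 0.70 ± 0.29 in busulfan and 0.78 ± 0.28 in AOS-FMT. Kif23 lay above the highest control in all 9 exposed libraries and Racgap1 in 8 of 9. Anln, the scaffold anillin of the cleavage furrow, had 3.08, 3.19 and 2.54 CPM in control, 3.39, 4.24 and 3.13 in busulfan, 3.53, 3.44 and 2.85 after control-FMT and 4.78, 6.45 and 4.39 after AOS-FMT. Only the AOS-FMT libraries lay above all others, at 0.83 ± 0.23 against control. Kif20a, a motor of the central spindle, had 3.08, 3.34 and 2.22 CPM in control, 4.7, 5.01 and 3.47 in busulfan, 5.41, 4.66 and 4.14 after control-FMT and 3.77, 4.13 and 3.14 after AOS-FMT and stood at 0.72 ± 0.24 in control-FMT, and Ect2, which activates RhoA at the furrow, stood at 0.89 ± 0.38 in AOS-FMT.

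**Figure D3:**
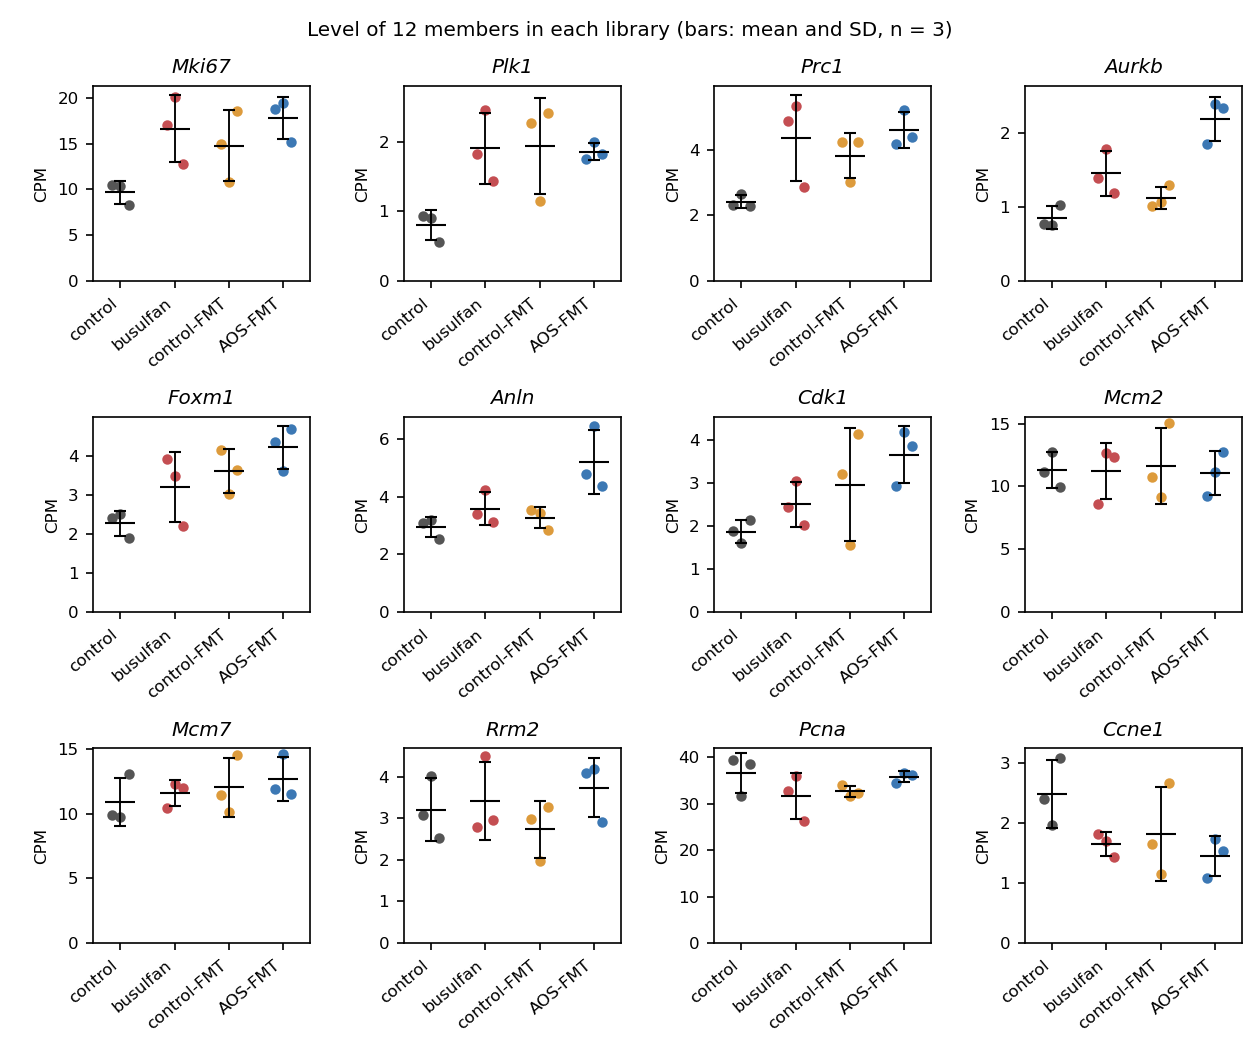
CPM of 12 members in each library (points) by group, with the mean and SD of 3 libraries (bars). Mki67, Plk1 and Prc1 have all 9 exposed libraries above the controls, Aurkb and Anln are highest in the 3 AOS-FMT libraries, and in Mcm2, Mcm7, Rrm2 and Pcna each exposed group overlaps control.

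The 9 licensing genes had median log2 fold changes against control of 0.09 in busulfan, 0.23 with control-FMT and 0.49 with AOS-FMT. Cdt1, the loader of the MCM helicase, had 1.54, 2.13 and 2.86 CPM in control, 3.22, 4.33 and 3.13 in busulfan, 2.98, 3.68 and 3.71 after control-FMT and 2.85, 5.03 and 3.0 after AOS-FMT. Its fold changes against control were 0.71 ± 0.30, 0.66 ± 0.30 and 0.74 ± 0.30, and AOS-FMT replicate 1 lay just under the highest control, the one exposed library of 9 that did. Cdc6, the other loader, had 0.514, 0.760 and 0.476 CPM in control, 0.783, 1.1 and 0.423 in busulfan, 1.41, 0.818 and 1.55 after control-FMT and 0.587, 2.0 and 1.1 after AOS-FMT. Control-FMT lay above control without overlap, but the gene's standard errors were large (1.09 ± 0.52 in control-FMT). The helicase subunits had more reads.

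Mcm2 had 11.1, 12.8 and 9.91 CPM in control, 8.62, 12.6 and 12.3 in busulfan, 10.7, 9.16 and 15 after control-FMT and 9.22, 11.2 and 12.7 after AOS-FMT, with fold changes of -0.01 ± 0.21, 0.04 ± 0.21 and -0.03 ± 0.21 against control. Mcm3 had 5.39, 8.36 and 6.58 CPM in control, 8.09, 6.36 and 5.41 in busulfan, 7.68, 5.97 and 10.2 after control-FMT and 7.21, 8.45 and 7.24 after AOS-FMT, and Mcm5 had 4.19, 4.71 and 4.76 CPM in control, 6.44, 6.45 and 3.72 in busulfan, 7.13, 4.17 and 7.68 after control-FMT and 4.78, 9.29 and 6.95 after AOS-FMT. Mcm2 and Mcm3 overlapped control in every group, and AOS-FMT lay above control without overlap for Mcm5 (0.63 ± 0.29). Mcm6 had 11, 11.9 and 8.25 CPM in control, 10.4, 14.9 and 5.58 in busulfan, 9.64, 15.9 and 11.1 after control-FMT and 14, 18.7 and 11 after AOS-FMT, and busulfan replicate 3 was the lowest of all 12 libraries. Mcm4 and Mcm7 stood at 0.31 ± 0.17 and 0.22 ± 0.17 in AOS-FMT. Mcm10, which helps to activate the helicase, had 0.514, 0.532 and 0.635 CPM in control, 0.609, 0.255 and 0.338 in busulfan, 0.314, 0.409 and 1.12 after control-FMT and 1.09, 0.645 and 1.17 after AOS-FMT. AOS-FMT lay just above busulfan without overlap (1.25 ± 0.55).

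The 5 genes of nucleotide supply and the replication fork had medians of -0.05, -0.12 and 0.17 in the same comparisons. Pcna had 39.5, 31.8 and 38.6 CPM in control, 32.7, 35.9 and 26.2 in busulfan, 34, 31.7 and 32.4 after control-FMT and 34.5, 36.7 and 36.3 after AOS-FMT. Its fold changes against control, -0.21 ± 0.12, -0.16 ± 0.12 and -0.03 ± 0.12, had small standard errors, and each group overlapped control. Tyms, thymidylate synthase, had 1.8, 2.05 and 4.28 CPM in control, 2.52, 3.22 and 2.11 in busulfan, 3.14, 2.29 and 3.62 after control-FMT and 3.02, 3.81 and 2.34 after AOS-FMT. Rrm2, the regulated subunit of ribonucleotide reductase, had 3.08, 4.03 and 2.54 CPM in control, 2.79, 4.5 and 2.96 in busulfan, 2.98, 1.96 and 3.28 after control-FMT and 4.11, 4.19 and 2.92 after AOS-FMT. Tk1, thymidine kinase, had 2.05, 1.22 and 2.14 CPM in control, 1.83, 3.14 and 1.44 in busulfan, 1.65, 2.78 and 1.9 after control-FMT and 1.68, 3.68 and 2.19 after AOS-FMT. None of these 3 separated any exposed group from control, and the catalytic subunit Rrm1 stood at -0.12 ± 0.15 in busulfan and 0.15 ± 0.15 in AOS-FMT.

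Among the factors that start S phase, E2f1 had 1.63, 2.13 and 2.7 CPM in control, 2.26, 3.73 and 2.54 in busulfan, 2.51, 2.29 and 2.59 after control-FMT and 2.77, 3.03 and 1.17 after AOS-FMT, and every exposed group overlapped control. Ccne1, which encodes cyclin E1, had 2.4, 1.98 and 3.09 CPM in control, 1.83, 1.7 and 1.44 in busulfan, 1.65, 1.15 and 2.67 after control-FMT and 1.09, 1.74 and 1.54 after AOS-FMT. Both busulfan and AOS-FMT lay below control without overlap, and AOS-FMT against control gave -0.76 ± 0.35 at an unadjusted p of 0.0494 (edgeR adjusted p = 0.561). E2f2, a second activating E2F, had 0.856, 1.37 and 1.82 CPM in control, 0.870, 0.849 and 1.1 in busulfan, 0.941, 1.39 and 1.12 after control-FMT and 0.922, 2.45 and 1.68 after AOS-FMT, with its highest value in AOS-FMT replicate 2. Ccna2, cyclin A2 of S phase and early mitosis, had 4.28, 2.96 and 1.75 CPM in control, 5.05, 6.96 and 2.71 in busulfan, 4.78, 3.03 and 4.14 after control-FMT and 3.69, 5.1 and 5.41 after AOS-FMT, and Ccne2, the other cyclin E, stood at 0.13 ± 0.34, 0.07 ± 0.34 and 0.13 ± 0.34. In Ccna2 control replicate 1 overlapped the exposed libraries in each group.

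Control-FMT against control addressed the drug and control FMT together. Plk1 stood at 1.27 ± 0.38 (edgeR adjusted p = 0.400), Kif20a at 0.72 ± 0.24, Mki67 at 0.61 ± 0.21 and Nuf2 at 1.24 ± 0.45, and each of these had all 3 control-FMT libraries above the controls. edgeR called 0 of 52, where 0% of all genes were called. At an unadjusted p under 0.05 there were 7 members higher and 0 lower, where 4.46% and 3.74% of all genes were. In 14 members control-FMT lay above control without overlap and in 0 below, against 7.16% and 4.71% of all genes. The median was 0.47. The count of 7 was 4 without control replicate 1, control replicate 3 or control-FMT replicate 3, and 12 without control-FMT replicate 2. The shares of all genes higher in these 4 fits were 4.02%, 3.51%, 3.80% and 3.96%.

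AOS-FMT against control held the most members. At an unadjusted p under 0.05 there were 23 members higher and 1 lower, where 5.43% and 3.44% of all genes were. The 23 were Aurkb, Mki67, Anln, Prc1, Foxm1, Plk1, Nuf2, Cenpe, Kif2c, Top2a, Cdk1, Hmmr, Kif23, Cdc20, Kif11, Cdt1, Bub1, Tpx2, Bub1b, Ect2, Racgap1, Ccnb1 and Ccnb2. Only Cdt1 of these was classed with the S phase members, and the 1 lower was Ccne1. edgeR called 0 of 52 at an adjusted p under 0.05, where 0.0815% of all genes were called, and the smallest adjusted p was 0.176, for Aurkb and Mki67. DESeq2 called 1, Mki67, at an adjusted p of 0.0291, where it called 122 of all 13489 genes. Limma-voom called 0 members, where it called 8 of all genes. In 29 members AOS-FMT lay above control without overlap and in 1 below, against 6.63% and 3.8% of all genes. The median over the 52 was 0.72. The count of 23 was 14 without control replicate 2 and between 16 and 25 without any other single library, and the 1 lower member was lost in 8 of 12 such fits. The share of all genes higher was 7.39% without control replicate 2 and 4.07% to 5.73% in the other fits.

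After these values were seen, the mean of the 3 exposed groups was also set against control. Mki67 had 16.4 ± 3.19 CPM against 9.67 ± 1.24 CPM (SD over 9 and 3 libraries), at 0.76 ± 0.18 and an edgeR adjusted p of 0.163. DESeq2 gave Mki67 an adjusted p of 0.0171, and called no other member, where it called 137 of all 13489 genes. In edgeR 0 of 52 were called, where 0.156% of all genes were, and 21 were higher and 1 lower at an unadjusted p under 0.05, where 5.69% and 4.51% of all genes were. Without control replicate 3 the count of 21 was 9, and without control replicate 2 it was 12, where 3.93% and 7.26% of all genes were higher. In 5 members (Mki67, Plk1, Prc1, Nuf2 and Kif23) all 9 exposed libraries lay above the 3 controls, against 1.43% of all genes. In 13 more, among them Aurkb, Foxm1, Bub1b, Cdt1 and Tpx2, 8 of 9 did. The share of all genes with 8 of 9 was not computed, so this count of 13 only describes the members.

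Control-FMT was compared with busulfan for what control FMT adds to the drug. Cdc6 had the smallest p of the 52, with 0.70 ± 0.51, followed by Ndc80 at 0.73 ± 0.63, Mcm3 at 0.26 ± 0.23 and Aurkb at -0.37 ± 0.32, and the edgeR adjusted p was 0.999 for all 4. edgeR called 0 of 52, where 0% of all genes were called. At an unadjusted p under 0.05 there were 0 members in either direction, where 1.76% of all genes were higher and 0.89% lower, and no member separated the groups, where 5.41% and 6.58% of all genes did. The median was 0.01, with 27 members above 0 and 25 below, where 49.9% of all genes lay above 0. Without busulfan replicate 2 the median was 0.20, and without control-FMT replicate 3 it was -0.14.

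AOS-FMT against busulfan is the comparison closest to the series title. Anln, anillin, had the smallest p of the 52, with 5.21 ± 1.1 CPM against 3.59 ± 0.582 CPM (SD, n = 3 each), a log2 fold change of 0.54 ± 0.22 and an edgeR adjusted p of 0.327. Mcm10 stood at 1.25 ± 0.55, E2f2 at 0.85 ± 0.42 and Aurkb at 0.59 ± 0.30, and Anln, Mcm10 and Aurkb had no overlap between the groups. edgeR called 0 of 52, where 0.0445% of all genes were called. At an unadjusted p under 0.05 there were 2 members higher and 0 lower, where 7.8% and 5.85% of all genes were, so the members held no larger share than all genes. In 5 members AOS-FMT lay above busulfan without overlap and in 0 below, against 10.3% and 10.9% of all genes. The median was 0.20, and 42 of 52 lay above 0. Over all genes tested the median was 0.005, and 50.7% lay above 0. Without busulfan replicate 3 the median of the members was 0.07. The count of 2 was 6 without busulfan replicate 2, 0 without busulfan replicate 3, and 1 without busulfan replicate 1, any control library, AOS-FMT replicate 2 or AOS-FMT replicate 3. The share of all genes higher was 6.45% without busulfan replicate 2 and 7.16% without busulfan replicate 3. In the fits that gave 1 it was 3.89% to 9.96%.

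AOS-FMT against control-FMT compares both kinds of FMT after the drug. Aurkb had 2.19 ± 0.301 CPM against 1.13 ± 0.148 CPM (SD, n = 3 each), at 0.96 ± 0.31 (edgeR adjusted p = 0.737), and Anln stood at 0.67 ± 0.22. In both genes the groups did not overlap. Rrm1 and Cenpe followed, at 0.27 ± 0.15 and 0.70 ± 0.39. Again 0 of 52 were called by edgeR, where 0.0297% of all genes were, and 2 were higher and 0 lower at an unadjusted p under 0.05, where 3.88% and 2.35% of all genes were. In 5 members AOS-FMT lay above control-FMT without overlap and in 1, Kif20a, below, against 6.52% and 7.29% of all genes. The median was 0.22. The count of 2 was 4 without control-FMT replicate 3 and 1 without AOS-FMT replicate 2.

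The other genes of replication and mitosis were taken from lists made by function. Of 53 further mitosis genes 44 were tested and 0 were called by edgeR in any of the 6 comparisons. In busulfan against control 5 were higher and 0 lower at an unadjusted p under 0.05, where 5.54% and 5.78% of all genes were. Their median was 0.43. Kif22, a chromosome motor, stood at 1.04 ± 0.33, and the condensin subunits Ncaph and Ncapg2 stood at 0.74 ± 0.30 and 0.65 ± 0.27. In AOS-FMT against control 6 were higher and 1 lower, where 5.43% and 3.44% of all genes were, with a median of 0.44. The 3 with the smallest p in AOS-FMT against busulfan were Spc24, a kinetochore subunit, at -0.77 ± 0.23, Ckap2, a spindle protein, at 0.81 ± 0.29 and the condensin subunit Smc4 at 0.40 ± 0.15. Spc24 was the lower one against control as well, at -0.94 ± 0.23.

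Of 30 further replication genes 29 were tested, and 0 were called by edgeR in any of the 6 comparisons. In busulfan against control 1 was higher and 0 lower at an unadjusted p under 0.05, where 5.54% and 5.78% of all genes were, with a median of 0.08. In AOS-FMT against control 2 were higher and 0 lower, where 5.43% and 3.44% of all genes were, with a median of 0.16. Pole, the leading-strand polymerase, stood at 0.77 ± 0.26 in busulfan, Pola2 of DNA polymerase alpha at 0.31 ± 0.16 and Gins2 of the replicative helicase at 0.63 ± 0.42. Gmnn, which encodes geminin, the inhibitor of Cdt1, stood at -0.52 ± 0.26 in AOS-FMT against busulfan, without overlap, with Orc6 at 0.41 ± 0.23 and Chaf1b at 0.61 ± 0.41. The 11 genes of the DREAM complex and its pocket proteins, which hold cell-cycle promoters silent in resting cells, had medians of -0.05 in busulfan and 0.09 in AOS-FMT against control. E2f5 stood at -0.51 ± 0.21, Rbbp4 at -0.14 ± 0.10 and Lin9 at -0.31 ± 0.32 in busulfan. In AOS-FMT against busulfan Lin9, E2f5 and Rbl2 stood at 0.61 ± 0.31, 0.39 ± 0.21 and 0.18 ± 0.12.

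A cell-cycle inhibitor and a D cyclin of the gap phase were called higher than control, and the calls in busulfan depended on the setting. Cdkn1a, the p53 target that encodes the kinase inhibitor p21, had 41.4, 42.7 and 31.3 CPM in control, 65, 80.2 and 72.6 in busulfan, 63.3, 65.7 and 69.2 after control-FMT and 75.4, 88.7 and 86.8 after AOS-FMT, and edgeR called it in busulfan (0.92 ± 0.13, adjusted p = 0.0247) and in AOS-FMT (1.12 ± 0.13, adjusted p = 0.0103) against control. Ccnd1, cyclin D1, had 40.8, 41.3 and 32.8 CPM in control, 71.8, 83.5 and 59.8 in busulfan, 83, 70.3 and 77.4 after control-FMT and 76.1, 59.5 and 70.6 after AOS-FMT. It was called in busulfan against control (0.91 ± 0.14, adjusted p = 0.0419) and not in AOS-FMT against control (edgeR adjusted p = 0.051). Neither gene was called in control-FMT against control, where edgeR called 0 of all genes. Of 20 alternative fits of busulfan against control, 8 did not call Cdkn1a (adjusted p over all 20 from 1.43e-06 to 0.173) and 14 did not call Ccnd1 (3.21e-05 to 0.533). Both calls were lost without scaling, with only the 6 libraries compared, with the atrial covariate, and when any of busulfan replicate 1, busulfan replicate 2, control-FMT replicate 1 and control replicate 3 was left out. That of Cdkn1a was also lost without busulfan replicate 3. That of Ccnd1 was also lost with DESeq2 size factors in edgeR, with limma-voom, and without control replicate 1, control replicate 2, control-FMT replicate 2, control-FMT replicate 3 or AOS-FMT replicate 3. In AOS-FMT against control, Cdkn1a lost its call in 1 of 20, with only the 6 libraries compared (adjusted p = 0.0858). There Ccnd1 was not called in 13 of 20. The log2 fold changes for busulfan stayed between 0.77 and 1.00 for Cdkn1a and between 0.78 and 1.02 for Ccnd1.

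Markers of cell types that could hold the dividing cells were read in the same libraries. The 6 endothelial markers, Pecam1 and Cdh5 among them, summed to 915, 924 and 908 CPM in control, 1108, 1106 and 922 in busulfan, 1044, 950.0 and 1083 after control-FMT and 1143, 1096 and 1091 after AOS-FMT. The control libraries, busulfan replicate 3 and control-FMT replicate 2 formed the low end, and the same 5 libraries had the lowest member means. T and NK markers summed to 3.85, 4.94 and 5.16 CPM in control, 4.44, 8.23 and 4.99 in busulfan, 7.6, 14.4 and 4.66 after control-FMT and 6.2, 20.9 and 8.41 after AOS-FMT, highest in AOS-FMT replicate 2 and control-FMT replicate 2, and in busulfan highest in replicate 2. Of the 11 listed T and NK genes 10 were in the table, and Klrd1 was at 0 in busulfan replicate 1 and AOS-FMT replicate 1. The T cell receptor subunit Cd3e had 0.342, 0.152 and 0.0793 CPM in control, 0.261, 0.509 and 0.254 in busulfan, 0.705, 1.23 and 0.0863 after control-FMT and 0.335, 1.29 and 0.658 after AOS-FMT. The part of endothelial and T cell transcripts in the member differences was not tested.

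**Figure D4:**
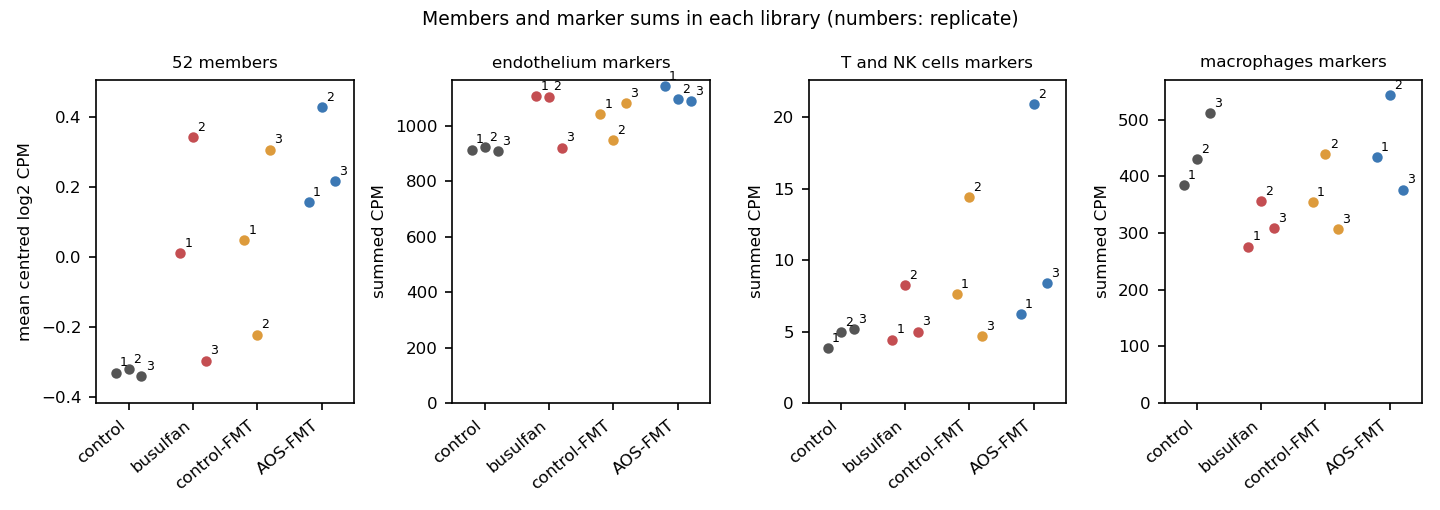
Mean of the 52 members as centred log2 CPM, and summed CPM of endothelial, T and NK, and macrophage markers, in each library (points numbered by replicate). Busulfan replicate 3 and control-FMT replicate 2 lie near the controls in the first 2 panels, and AOS-FMT replicate 2 stands highest in the T and NK panel.

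Macrophage markers, 8 in number, summed to 384 to 512 CPM in control, 276 to 357 in busulfan, 306 to 439 after control-FMT and 376 to 543 after AOS-FMT. Fibroblast markers summed to 1813 to 3095, 1303 to 1724, 1692 to 2077 and 1891 to 3175 CPM, and mural cell markers to 707 to 949, 941 to 1000, 965 to 1236 and 944 to 1011 CPM. The lowest macrophage and fibroblast sums stood in busulfan, and the highest of both stood in AOS-FMT. The part of macrophage, fibroblast and mural cell transcripts in the member differences was not tested. The erythroid sums were 3313 to 14824 CPM for control, 2554 to 4887 for busulfan, 3703 to 6584 for control-FMT and 5820 to 8486 for AOS-FMT. The haem synthesis gene Alas2 had 40.1, 90.0 and 142 CPM in control, 55.4, 32.8 and 35.9 in busulfan, 55.3, 34.2 and 70.6 after control-FMT and 60.9, 109 and 50.6 after AOS-FMT. Platelet markers summed to 25.3 to 82.3, 16.3 to 20.5, 17.8 to 23.2 and 22.9 to 36.3 CPM. B cell markers summed to 2.63 to 8.15 CPM over the 12 libraries. The 7 neutrophil markers in the table summed to 0.47 to 2.78 CPM, and Mpo, which marks dividing myeloid precursors, was at 0 counts in 11 of 12 libraries. Liver markers summed to 3.41 to 4.37 CPM in control, 18.5 to 19.7 in busulfan, 12.7 to 39.8 after control-FMT and 44.5 to 449.9 after AOS-FMT, and their part in the result was not tested. Atrial transcripts also varied. With the atrial score as a covariate, 23 members were higher at an unadjusted p under 0.05 in AOS-FMT against control, beside 23 without it. In busulfan against control 9 were, beside 10. With the covariate 6.06% and 3.85% of all genes were higher in these comparisons.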

How the data were processed

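Per the file headers, the authors deposited estimated counts, TPM and FPKM for each gene, and group means, which were not used. The estimated counts were 94.7% to 95.3% whole within 1e-09 per library and were rounded. The deposited TPM were used only to compare levels between genes, and the deposited FPKM were not used. The submitters' processing notes name Bowtie 0.12.2 and mm10, and for the counting tool, the annotation and strand use the sources used here give nothing. Genes were filtered with filterByExpr, scaled by TMM and tested by robust quasi-likelihood in edgeR 4.0.16 (R 4.3.3), with group as the only term over 12 libraries and 6 contrasts. Calls required an adjusted p under 0.05, by Benjamini-Hochberg over 13489 genes, and adjusted p-values are from edgeR unless another tool is named. Log2 fold changes carry standard errors, computed as the fold change over the root of its F statistic. Alternatives were DESeq2 1.42.0, limma-voom (limma 3.58.1), other scalings and filters, a replicate block, an atrial covariate and leaving out each library. The members, lists and tests were chosen with earlier results of these data known. Genes named were all members, with values in every library for 33 chosen by role and for the 4 with the smallest p of each comparison, and the 3 smallest p of each further list. On simulated counts for busulfan against control over 13390 genes, the test called 14.9% of the genes changed 1.5-fold, 59.1% at 2-fold and 89.4% at 4-fold, with 4.42% of 113 calls false. Each member's precision is limited by its depth. The members had a median of 33.8 counts per library, where all genes tested had a median of 258. Recovery at the depth of the members was not tested.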

Additional observations from a re-analysis of the deposited data

How the results depend on the processing

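Leaving out each library in turn left 0 members called by edgeR in all 6 comparisons and in the exposed groups pooled. The count higher at an unadjusted p under 0.05 then ran from 3 to 17 in busulfan against control, 0 to 1 in control-FMT against busulfan, 0 to 6 in AOS-FMT against busulfan, 1 to 4 in AOS-FMT against control-FMT, 4 to 12 in control-FMT against control, 14 to 25 in AOS-FMT against control and 9 to 24 in the exposed groups pooled. The count lower ran from 0 to 2, 0 to 0, 0 to 0, 0 to 0, 0 to 1, 0 to 2 and 0 to 3 in the same order. The median log2 fold change of the members ran from 0.23 to 0.60, -0.14 to 0.20, 0.07 to 0.37, 0.09 to 0.30, 0.30 to 0.57, 0.55 to 0.79 and 0.50 to 0.63.

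With only the 6 libraries compared, 5 members were higher in busulfan against control, where 4.69% of all genes were. In AOS-FMT against busulfan 0 were higher, where 8.27% of all genes were, and in AOS-FMT against control 0 were lower, where 1.71% were. For AOS-FMT against busulfan the count higher was 7 without scaling, 1 with DESeq2, 5 with limma-voom and 0 with the atrial covariate. The shares of all genes higher were 15.5%, 8.13%, 7.03% and 2.13% in the same order. Without scaling, the median of all genes moved by over 0.1 in that comparison, to 0.14. For AOS-FMT against control-FMT the atrial covariate gave 1 higher and 1 lower, where 1.53% and 1.98% of all genes were. DESeq2 called 1 member, Mki67, in AOS-FMT against control and in the exposed groups pooled, where it called 122 and 137 of 13489 genes. The 1 lower member of these comparisons, Ccne1, became 0 without scaling, with DESeq2 and with the replicate block, and in the pooled comparison also with the atrial covariate. The cause of these changes was not tested. Apart from leaving out libraries, the other settings kept counts within 1.5 times and medians within the spread between replicates.

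The replicate block changed no other count beyond 1.5 times: with it 10 members were higher in busulfan against control and 22 in AOS-FMT against control, with 0 called. With the block, 5.84% and 5.75% of all genes were higher. The replicate numbers were not taken to pair the libraries, because not every same-numbered pair had a correlation of deviations from the group means, across genes, above 0.1. These correlations ran from -0.16 to 0.45, with a median of 0.12 beside -0.04 for different numbers. All 6 pairs of replicate 1 libraries lay from 0.12 to 0.45, and 2 of 12 libraries correlated best with their own number in every other group.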
